A study of Mus musculus with 2 samples.

Results

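Amino acid transporters of 7 solute carrier families were followed in the mouse mammary gland. The genes were chosen by name alone, as rows of the deposited gene tables with a symbol made of Slc1a, Slc3a, Slc6a, Slc7a, Slc36a, Slc38a or Slc43a and digits, and 59 of 21113 genes met this rule. RNA carrying poly(A) tails was sequenced from mammary tissue of 6-week-old C57BL/6 mice, in 1 library per genotype. The control library was wild type. The other was homozygous for the ILN allele (ILN/ILN), in which a cassette of IRES, LacZ and Neo sequences sits in the gene locus of miR-212 and miR-132, a pair of microRNAs. No source used here gives the number of animals in a sample, and the effect of the cassette on the microRNAs was not analysed here.

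Amino acids do not cross the plasma membrane unaided, and cells carry them with families of solute carriers that differ in substrate and driving ion. Some Slc7a proteins, the light chains, reach the cell surface only when a disulphide bond joins them to a heavy chain of the Slc3a family. Slc38a proteins move glutamine and small neutral amino acids with sodium, Slc36a proteins use protons, and the Slc6a family also holds carriers of GABA, taurine, creatine and monoamines. In the mammary gland such carriers are best known for feeding milk protein synthesis in the epithelium, while at this age the gland is mostly a fat pad.

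Levels are the deposited FPKM-like values, which are scaled for gene length and library size and can be compared between genes. Fragments are the sequenced pieces assigned to a gene, 46133338 over all genes in the control and 42953129 in the ILN/ILN library. A fold is the ratio of fragments scaled by these totals. Intervals in parentheses are exact 95% intervals for counting error alone. With 1 library per genotype there is no replicate check and no test between the genotypes, and differences between animals or dissections are not covered.

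The tissue label was checked against marker genes, because bulk RNA mixes cell types and because fewer cells of a type and less RNA per cell cannot be told apart. White adipocyte genes were high in both libraries, with Adipoq, the adiponectin gene, at 3534 in the control and 3580 in the ILN/ILN library. Of the 10 listed, 7 were higher in ILN/ILN tissue and 3 lower, with 0 past 1.5-fold either way. Plin1 was at 421 and 556, Cfd at 33952 and 25466, and the list summed to 86219 and 77163. All 8 measured luminal epithelial genes passed 1.5-fold toward lower values in ILN/ILN tissue, with a summed value of 44.3 in the control against 0.934, and Krt8, Elf5 and Cldn7 had no fragment there. The 8 B cell genes summed to 193 and 35.5 and the 10 T cell genes to 83.4 and 29.6. The 9 macrophage genes summed to 2017 and 1293. The part of these cell types in the transporter values below was not tested.

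Because the cassette lies at the locus of the microRNAs, the mature sequences and the matching sites in the transporter transcripts are shown first. Both microRNAs share the seed, bases 2 to 8, in capitals. RefSeq places miR-212-3p at chr11:75173443-75173464 and miR-132-3p at chr11:75173723-75173744 on the plus strand of GRCm38.p6, a build that differs from the mm9 named in the submitters' processing notes.
miR-212-3p: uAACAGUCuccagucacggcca
miR-132-3p: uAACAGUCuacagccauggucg

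In GENCODE M21 the longest 3′ untranslated region of every gene was searched on the sense strand for GACTGTT, which pairs with the seed, for ACTGTTA, and for GACTGTTA, which holds both. Of 30 measured transporters, meaning those that reached a value of 1 in at least 1 library, 9 held a match (30.0%), against 20.3% of 11341 measured genes searched. The transporters had longer regions, with a median of 1884 bases against 1129 over all measured genes. The 5 matches of the forms GACTGTT and GACTGTTA in measured transporters are printed with their neighbouring bases, the match in capitals.
Slc38a1, base 2293 of the region: actgtagagtgGACTGTTctcgctctcgt
Slc38a9, base 4470: aggtaaagtaaGACTGTTttaaaagttta
Slc38a9, base 6786: gttacacactgGACTGTTAcccaaggcctg
Slc43a2, base 4214: ttcctaaccttGACTGTTctctgagggga
Slc7a6, base 606: aatgggaagcaGACTGTTgaggatctagg

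In GRCm38 these matches lie at chr15:96574412-96574418 (minus strand), chr13:112736134-112736140 and chr13:112738450-112738457 (plus), chr11:75576690-75576696 (plus) and chr8:106197244-106197250 (plus). Among the 9 measured transporters with a match of any form, 6 had a log2 ratio above 0 and 3, Slc38a1, Slc38a9 and Slc7a1, below 0. Their median log2 ratio of (value + 1), ILN/ILN over wild type, was 0.12, against 0.11 for the 21 transporters without a match. Over all measured genes the medians were 0.06 with and 0.00 without a match. Of the 2297 measured genes with a match, 1374 were above 0 and 923 below 0, and of all 30 measured transporters 21 were above 0. A match is a run of letters and was not tested as a working site.

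Transcripts of 3 carriers made up most of the transporter RNA in both libraries. Slc1a5, the sodium-dependent exchanger of glutamine and other neutral amino acids, stood at 677 in wild-type and 808 in ILN/ILN tissue. Slc36a2, a proton-coupled carrier of glycine, alanine and proline, had 184 and 206. Slc7a10, a light chain that exchanges small neutral amino acids such as serine and glycine, had 137 and 170. The last 2 are known as surface markers of fat cells. Together the 3 genes held 71.2% of the summed value of the 59 genes in wild type and 73.4% in ILN/ILN, and Slc1a5 ranked 167 and 124 among 11556 measured genes.

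**Figure D1:**
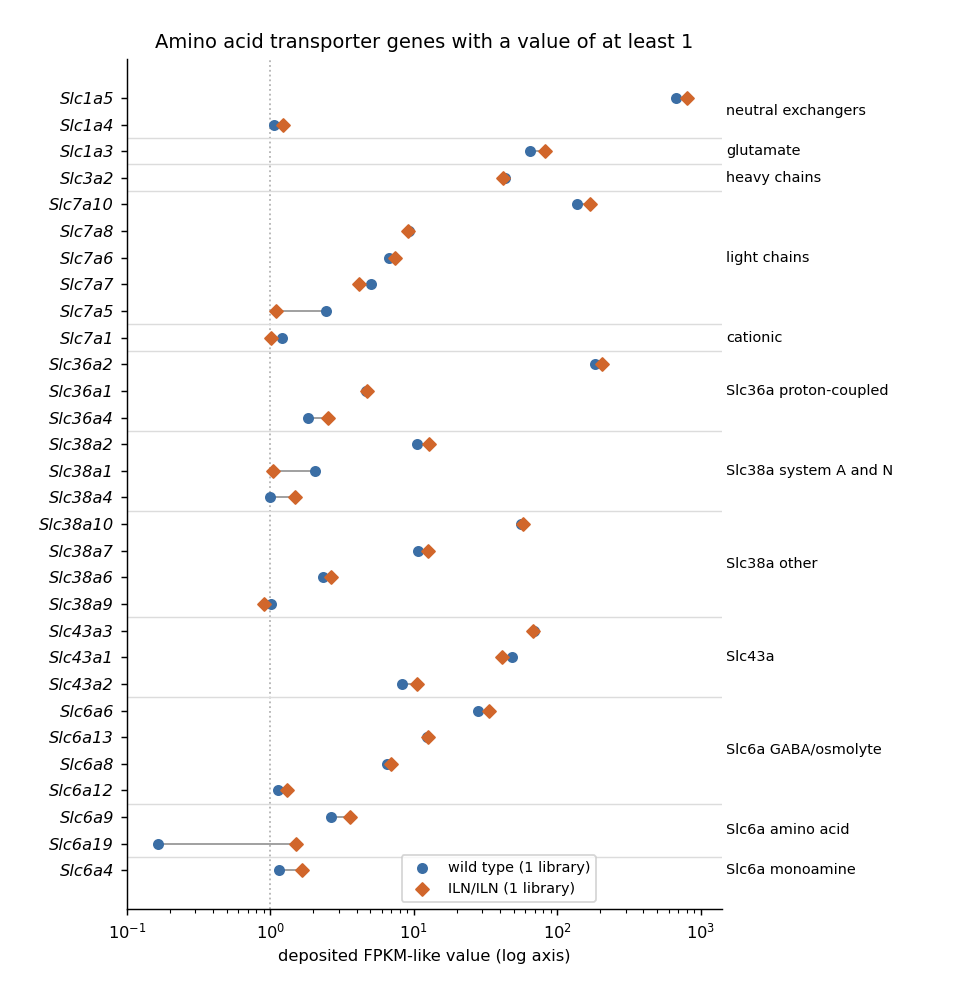
Deposited FPKM-like value (log axis) of the 30 measured transporter genes, ordered by role, with 1 point for the wild-type and 1 for the ILN/ILN library. Values run from 0.165 for Slc6a19 in wild type to 808 for Slc1a5 in ILN/ILN, and the widest gaps between the libraries are at Slc6a19, Slc7a5 and Slc38a1.

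Of the 59 genes 30 were measured (50.8%, against 54.7% of all genes), 22 had fragments in at least 1 library but stayed under a value of 1, and 7 had no fragment. The levels of the 30 measured genes kept nearly the same order in both libraries, with a Spearman correlation of 0.951 across genes, which share their 2 libraries and are not independent. The 8 highest genes were the same set.

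**Figure D2:**
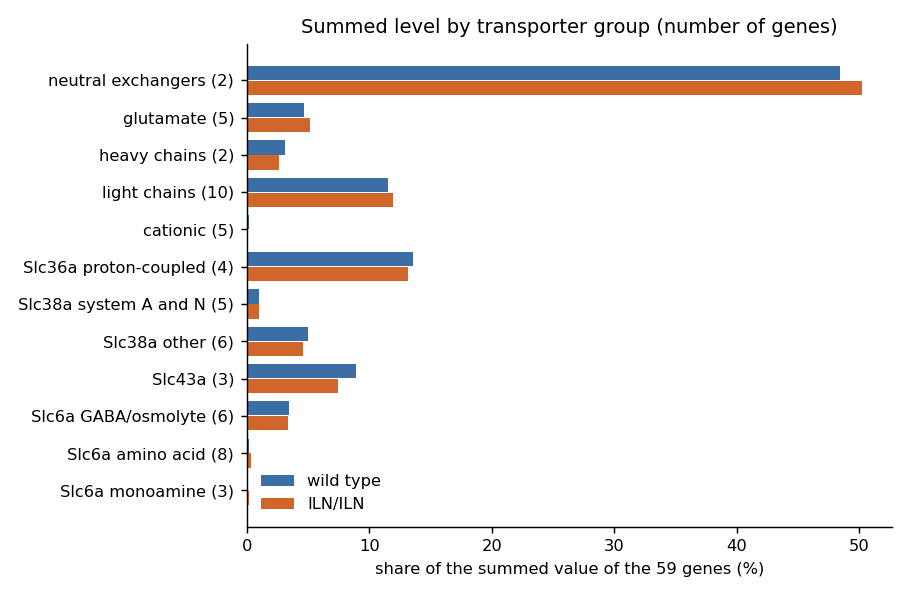
Share of the summed value of the 59 genes held by each role group, in percent, with 1 bar for the wild-type and 1 for the ILN/ILN library. Neutral exchangers hold 48.4% and 50.2%, nearly all of it Slc1a5, and the shares of each group in the libraries lie close together.

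Between the genotypes the transporters differed little. On the scale of (value + 1), 1 of the 30 measured genes was higher in ILN/ILN by 1.5-fold or more, as were 1.90% of all 11556 measured genes, and 1 was lower by as much, as were 5.39%. At 2-fold there were 1 higher (0.407% of all genes) and 0 lower (1.72%). The higher gene was Slc6a19 at both folds. Slc6a19 and Slc38a4 reached the minimum value of 1 through the ILN/ILN library alone, and Slc38a9 through the wild-type library alone. The median log2 ratio was 0.115 against 0.015 over all measured genes, with 21 of 30 above 0 against 52.3% of all. The summed value of the 59 genes was 1401 and 1613, a ratio of 1.15, and 1.11 without Slc1a5.

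**Figure D3:**
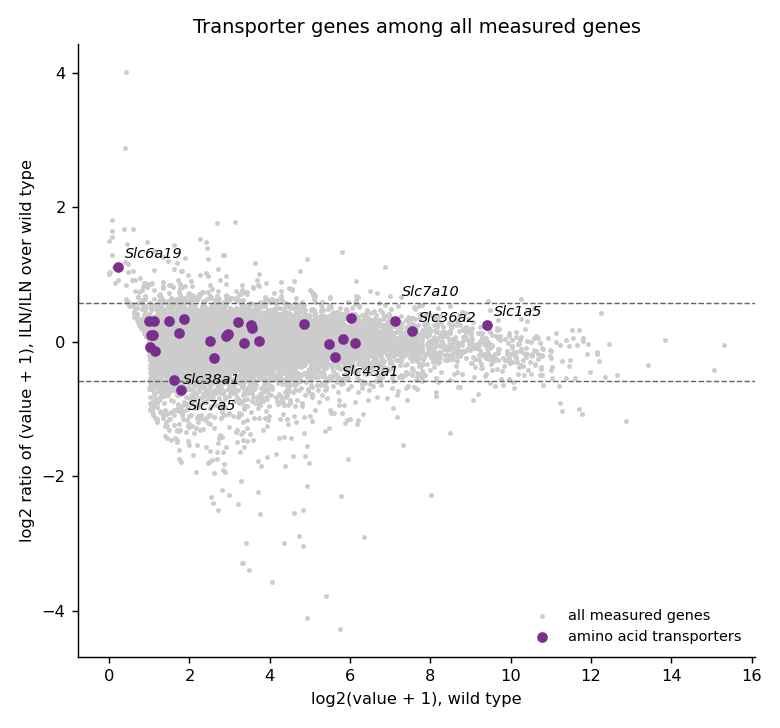
Log2 ratio of (value + 1), ILN/ILN over wild type, against log2(value + 1) in the wild-type library for all 11556 measured genes (grey) and the 30 measured transporters (purple). Dashed lines mark 1.5-fold, and Slc6a19 and Slc7a5 are the 2 transporters outside them.

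Fragments resolve smaller differences and low genes. Of 52 transporters with a fragment, 16 had an interval above 1 (30.8%, against 25.7% of 16381 genes) and 8 an interval below 1 (15.4%, against 26.3%). A fold of at least 1.5 together with such an interval was met by 3 higher genes (5.77%, against 3.74% of all) and 5 lower ones (9.62%, against 10.5%). The higher genes were Slc6a19, Slc6a2 and Slc38a3, and the lower ones Slc7a5, Slc38a1, Slc7a2, Slc7a4 and Slc1a2. This count was added after the data were seen.

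**Figure D4:**
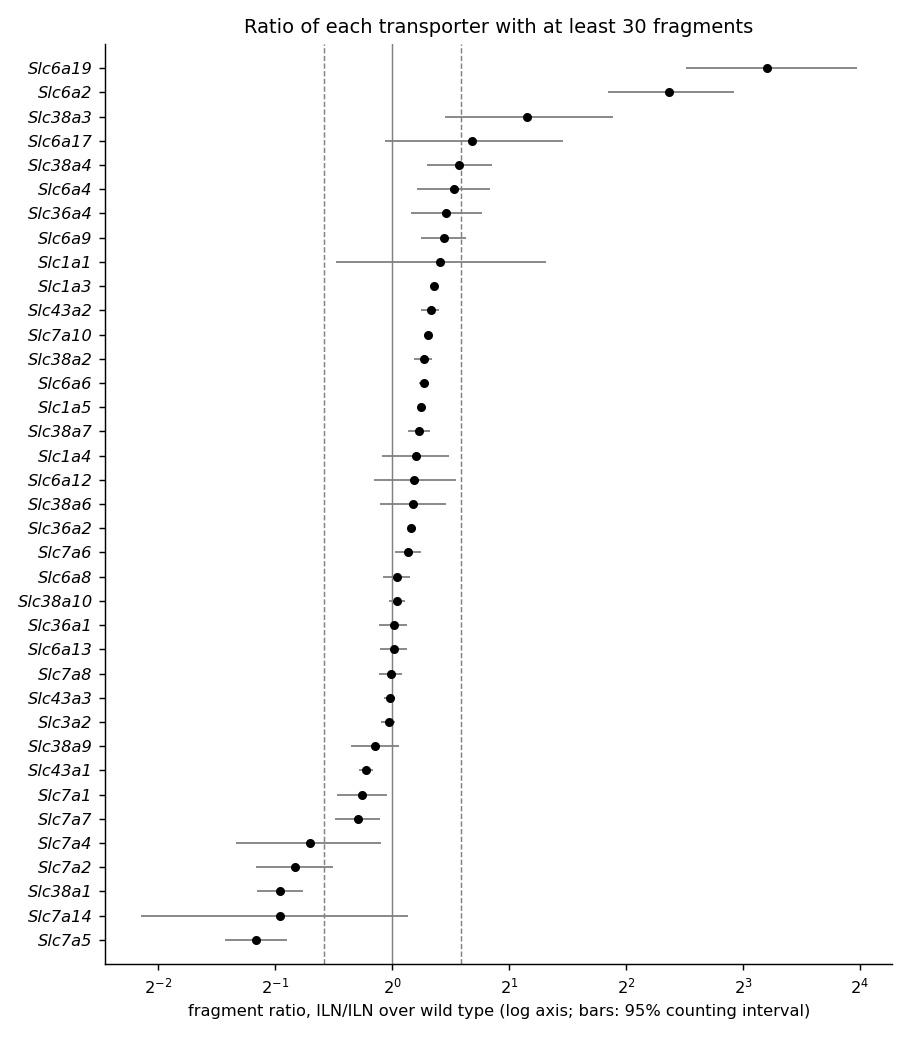
Fragment ratio, ILN/ILN over wild type (log axis), of the 37 transporters with at least 30 fragments over both libraries, with exact 95% counting intervals as bars. Most points lie between the dashed lines at 1.5-fold, with Slc6a19 and Slc6a2 far above and Slc7a5, Slc38a1 and Slc7a2 below.

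Among the neutral exchangers, Slc1a5 was 1.19-fold higher in the ILN/ILN library (1.18 to 1.20), from 88238 and 98010 fragments. Its paralog Slc1a4, which exchanges serine, alanine and cysteine, was far scarcer, at 1.07 and 1.23 (1.15-fold; 0.943 to 1.40). The level of Slc1a5 exceeded that of Slc1a4 633-fold in wild type and 658-fold in ILN/ILN. Glutamate carriers of the same family were represented by Slc1a3, at 64.4 and 82.3, which was 1.28-fold higher (1.25 to 1.31). The other glutamate carriers stayed low, with 21 and 26 fragments for Slc1a1, 18 and 3 for Slc1a2, 2 and 0 for Slc1a6 and 16 and 13 for Slc1a7. For Slc1a2 the fold was 5.59 lower (1.63 to 29.6), but its ILN/ILN value of 0.0990 rests on the isoform estimate.

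Heteromeric carriers had a single abundant heavy chain. Slc3a2, the heavy chain CD98, was even at 43.2 and 42.3 (ratio 0.979; 0.939 to 1.02). Slc3a1, the heavy chain of kidney and gut, had 6 and 8 fragments. The light chains known to pair with Slc3a2 summed to 161 and 192, more than the heavy chain itself, and without Slc7a10 to 23.5 and 21.8. The level of Slc7a10 alone was 3.18-fold that of Slc3a2 in wild type and 4.02-fold in ILN/ILN. For Slc3a2 the tables also hold a lower estimate derived from isoforms, 7.92 and 8.12, so its level against the light chains depends on the estimate.

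The light chains did not move together. Slc7a10 was 1.24-fold higher (1.21 to 1.27), with 11918 and 13744 fragments. Slc7a5, the light chain LAT1 that brings in leucine and other large neutral amino acids and is abundant in dividing cells, was at 2.44 in wild type and 1.09 in ILN/ILN. Its 407 and 169 fragments made it 2.24-fold lower (1.87 to 2.70), the lowest log2 ratio of (value + 1) of the measured transporters at -0.72. Slc7a8, the related chain LAT2, was nearly level at 9.22 and 9.15 (0.992; 0.927 to 1.06). Thus the level of Slc7a8 exceeded that of Slc7a5 3.78-fold in wild type and 8.41-fold in ILN/ILN.

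Slc7a7 and Slc7a6 exchange cationic for neutral amino acids. Slc7a7, which macrophages express, was at 5.07 and 4.13, 1.23-fold lower (1.07 to 1.41). Slc7a6 was at 6.75 and 7.45, 1.10-fold higher (1.02 to 1.19). These close relatives therefore lay on different sides of 1. Slc7a11, the cystine-glutamate exchanger, had only 7 and 3 fragments, and Slc7a9, Slc7a12 and Slc7a13 had none in either library. Slc7a15 had no fragment either, and its wild-type value of 0.0270 came from the isoform estimate.

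Slc7a11 is a known target of ATF4, the transcription factor of the amino acid response, so its promoter is printed as an example of the sequence this factor reads. The motif TGATGNAA, searched on both strands, occurred in 3 of 41 transporters with a promoter in the RefSeq table (7.32%), Slc7a11, Slc1a4 and Slc7a7, and in 4.51% of 27025 genes. The 300 bases, 250 before and 50 after the start, lie at chr3:50443564-50443863 on the minus strand of GRCm38.p6, and capitals mark the 2 matches, which face each other.
Slc7a11: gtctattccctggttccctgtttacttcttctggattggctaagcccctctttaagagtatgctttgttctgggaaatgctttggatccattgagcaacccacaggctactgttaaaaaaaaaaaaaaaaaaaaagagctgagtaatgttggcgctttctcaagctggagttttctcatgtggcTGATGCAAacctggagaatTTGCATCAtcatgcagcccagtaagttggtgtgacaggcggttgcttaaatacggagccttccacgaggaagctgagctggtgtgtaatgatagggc

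Genes of the cationic amino acid carrier family, which includes carriers that take up arginine and lysine, were scarce. The 3 whose interval lay off 1 were lower in ILN/ILN. Slc7a4 and Slc7a14 were placed in this group as family members only. Slc7a1, the widespread member, was at 1.21 and 1.01, 1.19-fold lower (1.03 to 1.38). Slc7a2, which feeds arginine to activated macrophages, was under the minimum at 0.632 and 0.355 and 1.78-fold lower (1.42 to 2.25; 228 and 119 fragments). Slc7a4 had 63 and 36 fragments (1.63-fold lower; 1.07 to 2.53), while Slc7a14, at 23 and 11, had an interval that spans 1 and Slc7a3 had 4 and 7. Summed over the 5 genes the value was 2.34 and 1.71. The macrophage list, whose 9 measured genes were all below 0 with 4 past 1.5-fold, was lower too, and its part in these values was not tested.

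Proton-coupled carriers were dominated by Slc36a2, which was 1.12-fold higher in the ILN/ILN library (1.10 to 1.15), with 20441 and 21384 fragments. Slc36a1, which works at lysosomes as well as the cell surface, was level at 4.69 and 4.72 (1.01; 0.925 to 1.09), so Slc36a2 stood 39.1-fold and 43.7-fold above it. Slc36a4 was at 1.83 and 2.53 (1.38-fold higher; 1.12 to 1.70). Slc36a3 had 4 and 1 fragments. Slc36a1, Slc36a2 and Slc36a3 lie beside each other on chromosome 11 in GRCm38, with gaps of 19.3 and 6.8 kb, and their levels still spanned this whole range.

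System A, the sodium-coupled uptake of small neutral amino acids, is served by 3 neighbouring genes on chromosome 15 that differed in direction. Slc38a2, the member that amino acid shortage induces, led with 10.6 and 12.8 (1.21-fold higher; 1.14 to 1.27). Slc38a1 was 1.94-fold lower (1.70 to 2.23), at 2.04 and 1.05, from 672 and 322 fragments. Slc38a4, which is imprinted and known from liver and placenta, was at 0.993 and 1.48 (1.49-fold higher; 1.23 to 1.81). Slc38a1 was thus the only one of the 3 with an interval below 1. Slc38a2 stood 5.21-fold above Slc38a1 in wild type and 12.2-fold above it in ILN/ILN.

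Slc7a5 and Slc38a1 were the 2 measured transporters with a fragment fold of at least 1.5 lower. Both are known from activated lymphocytes. Their fragment ratios were 0.446 and 0.515. Those of the 10 T cell genes ran from 0.177 for Lef1 to 0.551 for Cd3d, and those of the 8 B cell genes from 0.0849 for Pax5 to 0.288 for Cd79b. Those of the 8 measured luminal genes ran from 0 for Krt8 and Cldn7 to 0.145 for Cldn3, and Prlr, under the minimum, had 0.386. The part of lymphocytes and epithelium in the lower values of Slc7a5 and Slc38a1 was not tested.

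System N carriers of glutamine and histidine were scarce. Slc38a3 had 26 and 54 fragments (2.23-fold higher; 1.37 to 3.71), both under a value of 1, and Slc38a5 had 6 and 4. The remaining Slc38a genes were more even. Slc38a7, a glutamine carrier of the lysosome, was at 10.7 and 12.5 (1.17-fold higher; 1.10 to 1.25), and Slc38a6 at 2.33 and 2.64 (1.13; 0.929 to 1.38). Slc38a9, which reports lysosomal arginine to the growth kinase mTORC1 and carries the 2 printed matches, was level within its interval at 1.01 and 0.911 (ratio 0.901; 0.782 to 1.04). Slc38a10 was at 55.7 and 57.4, but its level is uncertain, since the isoform estimate was 0.415 and 0.568. Slc38a8 had 1 and 0 fragments and Slc38a11 had 3 and 7.

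The Slc43a family carries large neutral amino acids without sodium, apart from Slc43a3, a carrier of purine nucleobases. Slc43a3 was level at 68.7 and 67.7 (0.986; 0.955 to 1.02). Slc43a1, the carrier LAT3, was at 48.3 and 41.3, 1.17-fold lower (1.12 to 1.22), and its isoform estimate was 6.50 and 4.37. Slc43a2, the carrier LAT4, was at 8.32 and 10.5, 1.26-fold higher (1.19 to 1.32), while its isoform estimate, 4.27 and 3.81, went the other way. Slc43a2 is the transporter closest to the cassette, 358 kb from the microRNAs on chromosome 11. Its transcript overlaps an antisense gene by 922 exon bases in GENCODE M21.

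Among the Slc6a carriers, Slc6a6, the taurine transporter, led with 27.9 and 33.7 (1.21-fold higher; 1.17 to 1.24). Slc6a13, which carries GABA and taurine, was level at 12.3 and 12.5 (1.01; 0.932 to 1.09). Its direct neighbour Slc6a12, which carries betaine and GABA, was at 1.13 and 1.30 (1.14; 0.900 to 1.46). Slc6a8, the creatine transporter, was at 6.53 and 6.97 (1.03; 0.945 to 1.11), and its ILN/ILN value rests on the isoform estimate. Taurine, creatine and betaine carriers were thus level or slightly higher in the ILN/ILN library. Slc6a11, a GABA transporter of brain, had no fragment in either library.

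Slc6a19, the carrier that absorbs neutral amino acids in gut and kidney, had the highest ratio of all transporters. Its fragments numbered 19 in wild type and 163 in ILN/ILN, with values of 0.165 and 1.52, and it was 9.21-fold higher (5.71 to 15.7). It met the minimum of 1 through the ILN/ILN library alone. Tmem27, which encodes collectrin, a membrane partner of Slc6a19 in kidney, had 3 and 0 fragments. The adjoining Slc6a18, a relative known from kidney that lies 1.7 kb away, had 0 and 3 fragments.

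Of the other Slc6a genes, Slc6a9, the glycine transporter, was at 2.64 and 3.60 (1.36-fold higher; 1.19 to 1.55). It shares 1429 exon bases with Ccdc24 on the opposite strand, which was at 0.489 and 0.399. On that strand it also shares 46 with B4galt2, which was above it at 4.78 and 4.67, and 511 with the noncoding Gm17114. Slc6a2, the noradrenaline transporter, had 36 and 173 fragments (5.16-fold higher; 3.59 to 7.61), with values of 0.124 and 0.638. Slc6a4, the serotonin transporter, was at 1.16 and 1.66 (1.44-fold higher; 1.16 to 1.79), and Slc6a3, the dopamine transporter, had 2 and 2 fragments. The noradrenaline and serotonin transporters were therefore both higher, at low levels. Slc6a17, a carrier of synaptic vesicles, had 26 and 39 fragments and Slc6a7, the proline transporter of brain, 7 and 16, with intervals that span 1. Slc6a15, a neutral amino acid carrier, had 1 and 0. Slc6a5, the glycine transporter of spinal neurons, and Slc6a14, which carries neutral and cationic amino acids, had none.

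Overlap with genes on the opposite strand makes some values uncertain, since no source used here says whether counting used strand. In GENCODE M21 Slc7a7 shares 232 exon bases with Oxa1l, which was far higher at 44.1 and 45.2. Slc7a10 shares 377 with Lrp3, at 9.71 and 9.19, which is well below Slc7a10 itself. Some low carriers overlap more abundant genes, Slc7a4 with P2rx6 (554 bases; 5.32 and 4.30), Slc3a1 with Prepl (601; 7.87 and 12.9) and Slc1a1 with 4430402I18Rik (2631; 4.85 and 6.36). Slc7a2, Slc38a9, Slc38a10 and Slc1a2 overlap noncoding genes that were not analysed here.

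Other genes that handle amino acids are given by lists, to be read against the 1.90% of all measured genes past 1.5-fold higher and the 5.39% past 1.5-fold lower. Of 22 measured genes of the amino acid response, none passed 1.5-fold toward higher and 2 passed it toward lower values, with a median log2 ratio of -0.01 and 13 below 0. These 2 were Cebpb, a transcription factor gene, at 26.9 and 13.4, and Ddit4, an inhibitor of mTORC1, at 40.3 and 24.2. Sesn2, a leucine sensor, was at 6.30 and 8.75, and Stc2 at 6.67 and 5.14. Of 28 genes that sense amino acids for mTORC1 and the kinase GCN2 none passed 1.5-fold (median 0.10), with Sesn1 at 24.2 and 16.4 and Sesn3 at 4.68 and 6.31.

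None of 23 enzymes of amino acid metabolism passed 1.5-fold (median -0.04). Prodh, which degrades proline, was at 33.6 and 24.7, and Mat2a, which makes S-adenosylmethionine, at 15.9 and 20.1. None of 18 cytosolic tRNA synthetases passed either (median 0.06), with Cars, for cysteine, at 8.92 and 11.7 and Mars, for methionine, at 22.5 and 28.9. Of 12 genes of the Nrf2 and glutathione system, which draws on cystine, none passed 1.5-fold (median 0.06), and Hmox1, the haem oxygenase gene, was at 89.4 and 67.1. Among 6 measured transporters of other families none passed (median 0.17), and Slc16a10, which carries aromatic amino acids, was at 5.59 and 8.32. Both values rest on the isoform estimate, and by fragments Slc16a10 was 1.24-fold higher (1.04 to 1.48). Slc15a2, at 1.47 and 2.20, rests on that estimate too. Its fragment count, 32 in wild type and 21 in ILN/ILN, went the other way, with an interval that spans 1. The median includes both genes.

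**Figure D5:**
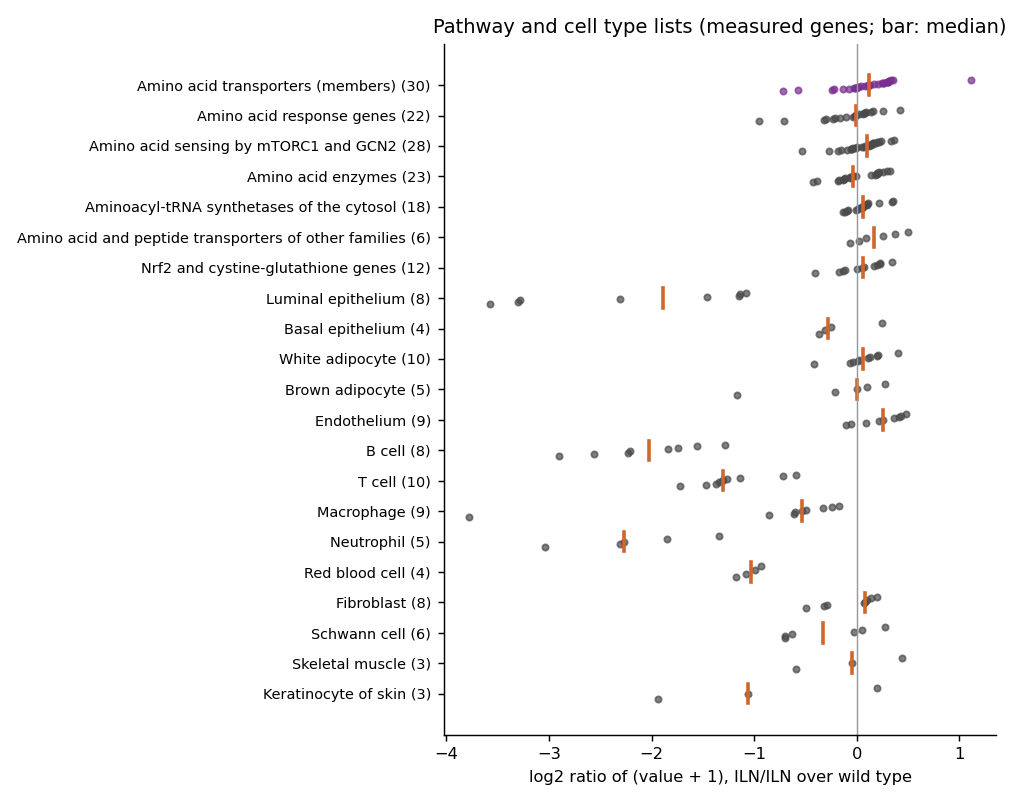
Log2 ratio of (value + 1), ILN/ILN over wild type, for each measured gene (points) and the median (bar) of the transporters, 6 pathway lists and 14 cell type lists, with the number of measured genes in parentheses. Amino acid lists have medians between -0.04 and 0.17, whereas luminal, B cell, T cell, neutrophil, red blood cell and skin keratinocyte lists lie well below 0. The keratinocyte list has only 3 measured genes. Macrophage, Schwann cell and basal epithelium lists are below 0 too, with medians of -0.54, -0.33 and -0.28. The endothelium list has a median of 0.25.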

How the data were processed

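Poly(A) RNA of 1 wild-type and 1 ILN/ILN mammary gland sample was made into libraries with a dUTP second strand and run on 2 lanes each, per the labels' protocols. Tools listed in the submitters' processing notes are TopHat 1.4.1, Bowtie 0.12.3 and bedtools, and the build is mm9. No source used here gives the program behind the tables, its annotation or its use of strand. The authors deposited an FPKM-like value and its log2(value + 1). They also deposited a signal per kilobase as an original and an isoform-derived estimate, and the value uses the larger one. The original signal times the gene length was whole within 0.01 in 100% of genes above 0, and this number is called fragments. Here log2 ratios used a pseudocount of 1 and a minimum value of 1 in either library, and intervals were exact conditional (Clopper-Pearson) intervals from scipy 1.17.1. The steps were tested on simulated counts with known folds. These held counting error alone, so they say nothing about differences between animals or dissections.

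Any transporter could be named, and up to 4 genes of each pathway list by size of log2 ratio, besides defining markers. The members and lists were chosen with earlier results of these data known. Gene positions come from GENCODE M21 (GRCm38). Alternatives covered pseudocount, scaling, minimum, estimate and the reading of the symbol rule. By symbols alone, Slc6a20a, Slc6a20b and Slc7a6os stayed outside the rule, the last not being a transporter gene of these families. Protein sequences were not used here, and values of some single genes are not reported here.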

Additional observations from a re-analysis of the deposited data

How the results depend on the processing

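No paired analysis was possible because each genotype had 1 library. Counts past a fold rest on low genes and so on the pseudocount and the minimum. With a pseudocount of 0.1 the lower transporters were 2 at 1.5-fold and 1 at 2-fold, in place of 1 and 0. At 1.5-fold that setting took 3.06% of all measured genes as higher and 7.68% as lower. A pseudocount of 5 or a minimum value of 5 gave 0 higher and 0 lower at 1.5-fold and 0 higher at 2-fold. Over all genes the shares at 1.5-fold were then 0.580% higher and 1.95% lower with that pseudocount. With that minimum, which kept 17 transporters, they were 1.79% and 4.53%. By fragments with an interval beyond 1, a count added after the data were seen, 3 were higher and 5 lower at 1.5-fold. Of all genes with a fragment, 3.74% were higher and 10.5% lower by that count. Under fragments per length, median-of-ratios or upper quartile scaling, no minimum, or symbols with a letter after the digits, the counts were as in the report. All-gene shares at 1.5-fold there ran from 1.09% to 1.90% higher and from 3.20% to 5.57% lower. The median log2 ratio of the transporters ranged from 0.007 with no minimum, which adds 29 genes near 0, to 0.172 with a pseudocount of 0.1. Over 6 settings of pseudocount, scaling and estimate, 19 of the 30 measured transporters had a log2 ratio above 0 throughout and 9 below 0 throughout. The exceptions were Slc36a1 (-0.007 to 0.008) and Slc6a13 (-0.001 to 0.015). Depth limits the low genes: with under 30 fragments intervals span several-fold.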
